A study of Homo sapiens with 8 samples.

Results

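The genes described here are the nuclear-encoded subunits of the mitochondrial respiratory chain and the ATP synthase, in the human lung adenocarcinoma line A549. Their transcripts were measured by RNA sequencing. They were chosen by symbol among the protein-coding genes of GENCODE release 29: NDUFA, NDUFB, NDUFC, NDUFS or NDUFV followed by a digit, SDHA to SDHD, UQCR, COX followed by a digit from 4 to 8, and ATP5. This gave 90 of the 66206 genes listed in each of 2 tables, 39 in complex I, 4 in complex II, 9 in complex III, 17 in complex IV and 21 in complex V. The symbols decide the complex, so NDUFA4 stands with complex I although its protein is known as a subunit of complex IV, and the ATP synthase inhibitor ATP5IF1 stands with complex V.

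Complex I oxidises NADH and complex II oxidises succinate, complex III passes the electrons from ubiquinol to cytochrome c, and complex IV passes them on to oxygen. Complexes I, III and IV pump protons across the inner mitochondrial membrane, and complex V makes ATP as the protons flow back. Every complex but complex II also holds subunits encoded by mitochondrial DNA, so each is built from the products of both genomes.

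The tested cells had received 25 pmol of LNA gapmers (antisense oligonucleotides that direct RNase H to their target) against the long noncoding RNA LY6K-AS, or 40 pmol of siRNA against YWHAG, which encodes the adaptor protein 14-3-3 gamma. Their controls had received 25 pmol of control gapmers and 40 pmol of control siRNA. Each of the 4 groups held 2 libraries, and the same transfection reagent was used throughout. Of the LY6K-AS knockdown libraries, 1 carries the name LNA1 and the other LNA3, and those of YWHAG knockdown si1 and si2. The labels do not say whether these are separate oligonucleotides. The siRNA controls are named here by the numbers in their table, 2 and 3. Nothing in the labels says whether the libraries of a group came from separate cultures, and the p-values below cover only the spread between libraries, which may be technical. The study's title places LY6K-AS in mitotic progression, and the comparisons below ask what each knockdown did to the respiratory chain genes.

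Levels are RPKM, reads scaled to the length of the merged exons and to the size of the library. Library totals, as the RPKM divisor gives them, were 26179563 and 30887465 reads in LY6K-AS knockdown, 33968088 and 30546710 reads in LNA control, 34560192 and 33737727 reads in YWHAG knockdown and 34476174 and 34463809 reads in siRNA control. The target of the gapmers, taken here as the gene annotated LNCOC1, had 3 and 8 reads in LY6K-AS knockdown and 34 and 17 reads in LNA control. YWHAG had 13.5 and 4.91 RPKM in YWHAG knockdown and 163 and 157.5 RPKM in siRNA control. All 8 epithelial markers of A549 cells were at 0.5 RPKM or more in every library, while 1 of 4 immune and 1 of 4 fibroblast markers and 0 of 4 endothelial markers reached that level. All genes of mitochondrial DNA, subunits or not, took 8.37 and 4.12% of the reads in LY6K-AS knockdown. They took 8.43 and 6.43% in LNA control, 14.0 and 18.2% in YWHAG knockdown and 15.3 and 18.2% in siRNA control. LY6K-AS knockdown 2 therefore stood apart with the lowest share. The siRNA and LNA tables were normalized separately, and levels set across them below are values side by side, with no test. In bulk RNA, fewer cells with a transcript and less of it per cell cannot be told apart.

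In the control libraries most of the respiratory chain was well expressed. Over all 90 genes the median control level was 25.4 RPKM in the LNA table, and by complex it was 16.4 RPKM in complex I, 10.6 in complex II, 40.9 in complex III, 19.5 in complex IV and 26.9 in complex V. The siRNA table gave medians of 17.6, 16.5, 48.1, 38.3 and 30.4 RPKM in the same order. The highest gene in both tables was ATP5F1B, the catalytic beta subunit of the ATP synthase, at 399 and 376 RPKM in the LNA controls and 415 and 384 RPKM in the siRNA controls. COX8A and COX6B1, small structural subunits of complex IV, followed at 312 and 307 RPKM and at 289 and 287 RPKM in the LNA controls. The order of levels was largely shared by the 2 tables (Spearman's rho 0.86 across the 78 genes measured in both, which share cells, genes and annotation), while the ratio of the LNA to the siRNA level moved with GC content (rho 0.57). NDUFS5 led complex I at 189 and 172 RPKM in the LNA controls, SDHB led complex II at 25.8 and 24.8 RPKM, and UQCRC1, a core subunit of complex III, led that complex at 68.0 and 66.6 RPKM.

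**Figure D1:**
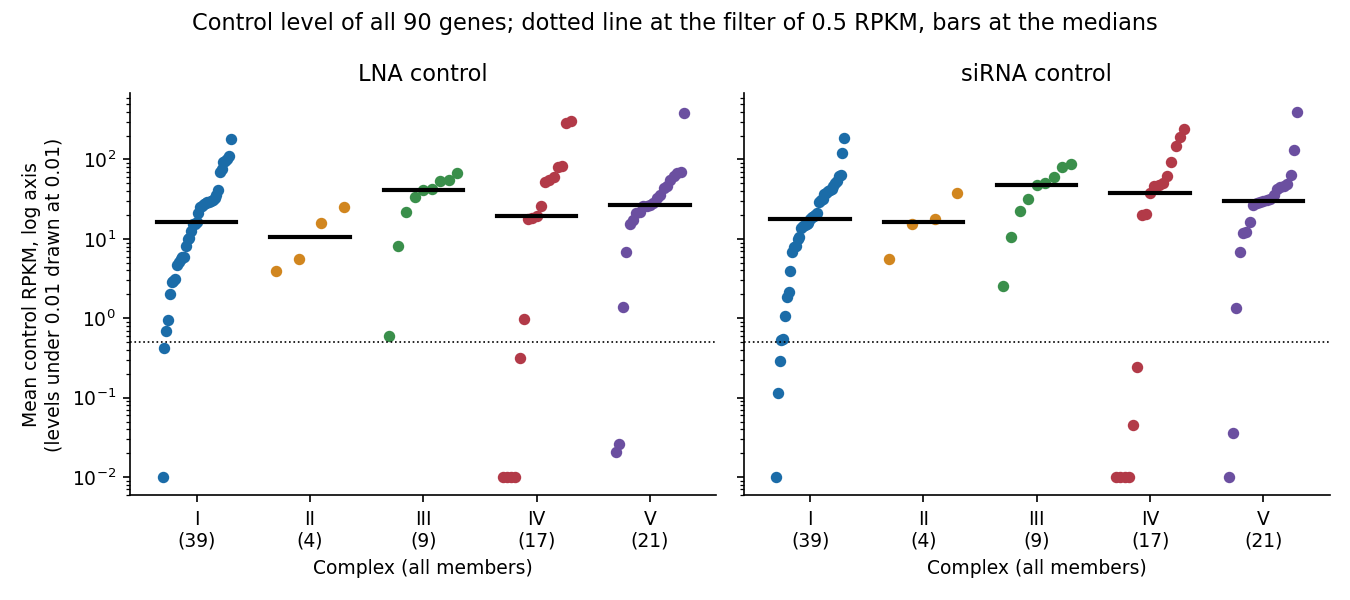
Mean RPKM of each of the 90 genes in the 2 LNA controls (left) and the 2 siRNA controls (right), on a log axis, grouped by complex and sorted within it. Bars are the medians of the complexes, and the members under the dotted line at 0.5 RPKM are mostly tissue-restricted isoforms of complex IV and readthrough genes.

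Complex IV, whose small subunits exist as ubiquitous and tissue-restricted isoforms, showed the ubiquitous form in each pair. COX4I1 had 57.2 and 51.8 RPKM in the LNA controls, whereas COX4I2, its oxygen-sensitive lung isoform, had 0 reads in 7 of 8 libraries and 1 read in LY6K-AS knockdown 2. COX6A1 had 25.0 and 26.6 RPKM and the muscle isoform COX6A2 had 0 reads in all 8 libraries, as had COX8C and COX7B2, forms known from testis. COX7A2 had 52.0 and 52.3 RPKM and the muscle isoform COX7A1 0.878 and 1.07 RPKM. COX6B2, the testis isoform of COX6B1, had 0.309 and 0.317 RPKM. A count of 0 allows up to 3 reads, which at the depth of these libraries is 0.0868 to 0.115 RPM (reads scaled to library size alone), for counting error only. Outside complex IV, NDUFA4 had 25.6 and 25.6 RPKM and its hypoxia-induced relative NDUFA4L2 0.839 and 1.07 RPKM. The 3 genes for the c ring of the ATP synthase, which encode the same mature protein, had 67.8 and 68.4 RPKM (ATP5MC1), 47.9 and 46.0 RPKM (ATP5MC2) and 29.4 and 27.6 RPKM (ATP5MC3). UQCRH, the hinge protein of complex III, had 53.7 and 53.6 RPKM and the near-identical retrogene UQCRHL 0.594 and 0.601 RPKM. Reads of such copies can be split between them, and GENCODE lists 149 pseudogenes with symbols of this kind.

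Some ubiquitous subunits of complex I were listed at low levels. NDUFV2, a core subunit of complex I, had 0.641 and 0.761 RPKM in the LNA controls and 0.984 and 1.18 RPKM in the siRNA controls, and NDUFA7, an accessory subunit, 0.375 and 0.463 RPKM in the LNA controls. NDUFS7, another core subunit, had 2.95 and 3.25 RPKM in the LNA controls and 0.466 and 0.601 RPKM in the siRNA controls. These genes share 28.4%, 33.5% and 49.1% of their exon length with other annotated genes; 50 members share some, and 21 share more than 20%. Whether shared exons set these levels was not tested.

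The members' promoters were compared with all RefSeq promoters at hand. The nuclear genes of the chain are known to share binding sites of a few factors: NRF1, the ETS factor GABPA and YY1. RefSeq promoters (build GRCh38.p14, 250 bases before to 50 bases after the start) were at hand for 72 of the 90 members, 68 by symbol and 4 through a synonym. Both strands were searched for the ETS letters CCGGAAG, the NRF1 letters GCGCATGCG and the YY1 letters AAGATGGCG, and the ETS and YY1 letters can overlap in AAG. The ETS letters stood in 20 of 72 member promoters (27.8%), against 10.7% of all 27305 promoters, the first listed of each gene with an entry. Those were not filtered by gene type or expression, whereas all members are protein-coding. The NRF1 letters stood in 10 (13.9%, against 2.1% of all promoters) and the YY1 letters in 8 (11.1%, against 1.85%). By complex, the ETS letters were found in 5 of 34 promoters of complex I, 2 of 3 of complex II, 3 of 7 of complex III, 5 of 14 of complex IV and 5 of 14 of complex V. The median GC content was 61% in the member promoters and 58.3% in all, and these shares are a description of letters, not of binding. After LY6K-AS knockdown the 20 members with the ETS letters had a median log2 change of -0.20 and the 46 tested members without them -0.17. For the NRF1 letters the medians were -0.11 (10) and -0.19 (56), and for the YY1 letters -0.25 (7) and -0.17 (59). The median GC content of the longest transcripts also differed, at 51.7% with and 46.8% without the ETS letters. It was 49.9% and 47.7% for the NRF1 letters and 48.6% and 47.5% for the YY1 letters. The differences between these changes were not tested.

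The promoter of 1 member of each complex is given 5′ to 3′ on the gene's strand, that of the member with the smallest unadjusted p after LY6K-AS knockdown among those with an entry. Capitals mark the letters searched, in either direction. SDHB holds the ETS and the YY1 letters, UQCRH the ETS letters, ATP5MD the ETS letters 3 times, of which 2 overlap as a palindrome, and NDUFB8 and COX7B none of them.
NDUFB8 (chr10:100529874-100530173, minus strand): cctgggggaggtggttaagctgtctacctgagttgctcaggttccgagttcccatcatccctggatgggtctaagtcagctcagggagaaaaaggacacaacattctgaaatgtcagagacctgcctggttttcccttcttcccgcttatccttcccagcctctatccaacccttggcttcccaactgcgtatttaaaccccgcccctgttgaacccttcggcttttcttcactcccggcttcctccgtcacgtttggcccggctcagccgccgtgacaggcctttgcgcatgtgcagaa
SDHB (chr1:17053983-17054282, minus strand): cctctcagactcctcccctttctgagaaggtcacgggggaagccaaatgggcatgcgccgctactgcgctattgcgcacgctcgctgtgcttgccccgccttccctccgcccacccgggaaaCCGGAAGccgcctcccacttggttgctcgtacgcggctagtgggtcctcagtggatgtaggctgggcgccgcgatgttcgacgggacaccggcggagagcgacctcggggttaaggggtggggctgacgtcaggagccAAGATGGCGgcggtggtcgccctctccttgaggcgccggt
UQCRH (chr1:46303448-46303747, plus strand): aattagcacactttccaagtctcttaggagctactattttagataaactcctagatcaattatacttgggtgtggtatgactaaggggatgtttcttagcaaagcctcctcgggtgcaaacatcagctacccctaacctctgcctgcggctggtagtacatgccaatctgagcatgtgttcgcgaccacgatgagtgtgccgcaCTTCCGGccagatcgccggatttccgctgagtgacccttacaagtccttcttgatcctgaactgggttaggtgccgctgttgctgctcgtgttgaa
COX7B (chrX:77899218-77899517, plus strand): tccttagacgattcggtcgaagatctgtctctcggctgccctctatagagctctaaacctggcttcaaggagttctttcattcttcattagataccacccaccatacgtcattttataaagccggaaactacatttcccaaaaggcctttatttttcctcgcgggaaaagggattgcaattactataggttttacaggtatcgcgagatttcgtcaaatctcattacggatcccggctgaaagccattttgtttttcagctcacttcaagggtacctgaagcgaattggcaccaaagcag
ATP5MD (chr10:103396426-103396725, minus strand): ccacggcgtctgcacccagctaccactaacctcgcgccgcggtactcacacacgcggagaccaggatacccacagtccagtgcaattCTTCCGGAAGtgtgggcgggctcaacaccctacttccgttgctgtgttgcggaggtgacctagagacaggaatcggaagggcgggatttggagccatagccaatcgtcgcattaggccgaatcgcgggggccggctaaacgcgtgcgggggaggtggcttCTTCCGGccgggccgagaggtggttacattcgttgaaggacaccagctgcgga

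After LY6K-AS knockdown most respiratory chain genes were measured lower than in LNA control, by small amounts, and none passed the test. Of the 81 members tested (those that reached 0.5 RPKM in 2 or more libraries), 64 were lower and 17 higher, with a median log2 change of -0.18, against 0.00 over all 14662 genes. At an adjusted p under 0.05 limma called 0 of the 81 members and 0% of all genes, and the smallest adjusted p of a member was 0.103. At an unadjusted p under 0.05 in limma, 27 members were lower, where 11.7% of all genes were, and 3 members were higher, where 13.6% of all genes were. Both knockdown libraries lay below both controls for 47 members (30.5% of all genes) and above both for 7 (31.4% of all genes). Limma voom on the reads recovered from RPKM also called 0 genes. The counts of calls depended on single libraries, since limma called 40 members (49.4%) without LY6K-AS knockdown 1, where it called 52.7% of all genes, and 35 members (43.2%) without LY6K-AS knockdown 2, where it called 29.7% of all genes. The changes are on the scale log2(RPKM + 1), which understates those of low genes.

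The 5 complexes had medians on the same side. The median log2 change was -0.13 in complex I (37 tested), -0.19 in complex II (4), -0.18 in complex III (9), -0.31 in complex IV (12) and -0.23 in complex V (19). Taken one at a time, LY6K-AS knockdown 1 gave medians of -0.18, -0.18, -0.19, -0.22 and -0.24 in the same order, and LY6K-AS knockdown 2 gave -0.04, -0.20, -0.24, -0.23 and -0.25. The cytosolic and mitochondrial ribosomal protein genes, long lists of short and abundant housekeeping genes, had medians of -0.16 (83 genes) and -0.14 (78 genes), so the sign of the change was shared with genes outside the respiratory chain.

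**Figure D2:**
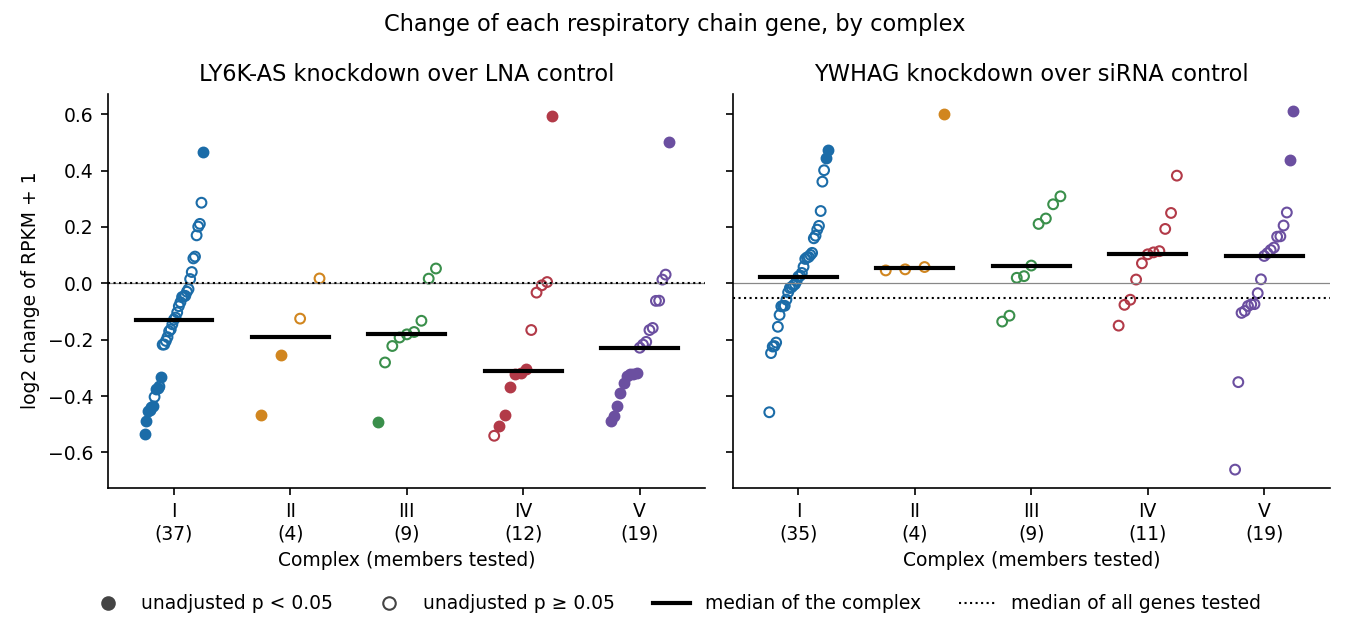
Log2 change of RPKM + 1 for each member tested, grouped by complex, for LY6K-AS knockdown over LNA control (left) and YWHAG knockdown over siRNA control (right). Filled points have an unadjusted p under 0.05 in limma, bars are the medians of the complexes and the dotted line is the median of all genes; the 5 medians lie between -0.31 and -0.13 on the left and between 0.02 and 0.10 on the right.

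In complex I most accessory subunits were measured lower, and the core subunits were split. NDUFB8, an accessory subunit of the membrane arm whose protein is a common marker of assembled complex I (ENSG00000166136.15, chromosome 10, 100523740 to 100530000, minus strand), had 6.32 and 6.77 RPKM in LY6K-AS knockdown and 10.01 and 9.86 RPKM in LNA control. Both knockdown libraries were below both controls, and the log2 change was -0.54 ± 0.09 (SE; limma, unadjusted p = 0.00302, adjusted p = 0.103). Since 48.5% of its exon length lies in other genes, HIF1AN among them, its level is uncertain. NDUFB6, another membrane arm subunit (ENSG00000165264.10, chromosome 9, 32552999 to 32573184, minus strand), had 25.8 and 25.6 RPKM in LY6K-AS knockdown and 34.8 and 36.1 RPKM in LNA control, again without overlap. For NDUFB6 the log2 change was -0.45 ± 0.08, limma adjusted p = 0.105. NDUFA12, an accessory subunit of the matrix arm, had 19.05 and 18.4 RPKM in LY6K-AS knockdown and 26.4 and 25.04 RPKM in LNA control. For NDUFA12 the log2 change was -0.44 ± 0.09, limma adjusted p = 0.110. The same order of groups was seen for NDUFS4, a subunit whose loss causes Leigh syndrome, with 21.8 and 21.2 RPKM in LY6K-AS knockdown and 30.8 and 28.1 RPKM in LNA control. For NDUFS4 the log2 change was -0.43 ± 0.09, limma adjusted p = 0.111. NDUFA3, of the membrane arm (ENSG00000170906.15, chromosome 19, 54102728 to 54109257, plus strand), went the other way, with 4.14 and 4.43 RPKM in LY6K-AS knockdown and 3.03 and 2.63 RPKM in LNA control. For NDUFA3 the log2 change was 0.47 ± 0.11, limma adjusted p = 0.119. Both knockdown libraries were above both controls. Among the 7 nuclear-encoded core subunits, which carry the flavin and the iron-sulfur clusters or their scaffold, 2 were lower and 5 higher, with a median of 0.17 and none at an unadjusted p under 0.05 in limma. The sign of that median rested on 1 library, since it was -0.08 in LY6K-AS knockdown 1 and 0.22 in LY6K-AS knockdown 2. Its value is that of NDUFV2, which had 0.641 and 0.761 RPKM in LNA control and shares 28.4% of its exon length. The length of NDUFV1, another of the higher core genes, could not be checked. Among the 30 accessory genes tested, 26 were lower and 4 higher, with a median of -0.17. These are all other genes placed in complex I by symbol, so NDUFA4 and NDUFA4L2 count among them. The core and accessory genes tested had median GC contents of 55.7% and 47.8%, and the difference between their changes was not tested.

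Complex II has 4 subunits, all nuclear-encoded, and each was tested. SDHB, the iron-sulfur subunit (ENSG00000117118.9, chromosome 1, 17018722 to 17054170, minus strand), had 20.8 and 21.3 RPKM in LY6K-AS knockdown and 25.8 and 24.8 RPKM in LNA control. For SDHB the log2 change was -0.25 ± 0.08, limma adjusted p = 0.169. SDHD, one of the membrane anchors (ENSG00000204370.8, chromosome 11, 112086773 to 112120013, plus strand), had 4.39 and 3.18 RPKM in LY6K-AS knockdown and 5.16 and 5.99 RPKM in LNA control, without overlap between the groups. For SDHD the log2 change was -0.47 ± 0.16, limma adjusted p = 0.188. The length behind its level could not be checked. SDHC, the other anchor, had 3.63 and 3.45 RPKM in LY6K-AS knockdown and 3.97 and 3.93 RPKM in LNA control. SDHA, the flavoprotein, had 15.2 and 16.6 RPKM in LY6K-AS knockdown and 15.6 and 15.8 RPKM in LNA control. The log2 changes of SDHC and SDHA were -0.13 ± 0.09 and 0.02 ± 0.09, and only SDHA's groups overlapped. With the trend in GC content removed the change of SDHC was 0.0051, and without LY6K-AS knockdown 2 that of SDHA was -0.044, the opposite sign in each case.

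In complex III the largest change was that of UQCRH (ENSG00000173660.11, chromosome 1, 46303631 to 46316776, plus strand), which binds cytochrome c1. It had 35.5 and 40.4 RPKM in LY6K-AS knockdown and 53.7 and 53.6 RPKM in LNA control, both knockdown libraries being below both controls, with a log2 change of -0.49 ± 0.10 (SE; limma, unadjusted p = 0.00702, adjusted p = 0.111). UQCRC2, a core subunit, had 29.1 and 27.8 RPKM in LY6K-AS knockdown and 34.1 and 32.7 RPKM in LNA control. For UQCRC2 the log2 change was -0.22 ± 0.09, limma adjusted p = 0.208. UQCRB, which lies at the ubiquinone pocket, had 6.79 and 6.14 RPKM in LY6K-AS knockdown and 8.59 and 7.55 RPKM in LNA control. For UQCRB the log2 change was -0.28 ± 0.11, limma adjusted p = 0.213. Of the 9 members 7 were lower, and UQCRC1, the other core subunit, had 69.7 and 66.5 RPKM in LY6K-AS knockdown and 68.03 and 66.6 RPKM in LNA control. The groups overlapped for UQCRC1 and not for UQCRH, UQCRC2 and UQCRB.

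In complex IV 10 of the 12 genes tested were measured lower, and 1 isoform stood out as higher. COX7B, a small structural subunit (ENSG00000131174.4, chromosome X, 77899438 to 77907373, plus strand), had 11.2 and 13.1 RPKM in LY6K-AS knockdown and 18.7 and 16.6 RPKM in LNA control. For COX7B the log2 change was -0.51 ± 0.12, limma adjusted p = 0.120. COX7A2L, a factor that links complexes III and IV into supercomplexes, had 15.8 and 15.1 RPKM in LY6K-AS knockdown and 19.8 and 19.2 RPKM in LNA control. For COX7A2L the log2 change was -0.32 ± 0.08, limma adjusted p = 0.136. COX7C had 59.99 and 68.03 RPKM in LY6K-AS knockdown and 87.4 and 78.3 RPKM in LNA control. For COX7C the log2 change was -0.37 ± 0.12, limma adjusted p = 0.163. In all of these both knockdown libraries were below both controls. COX7A1 (ENSG00000161281.10, chromosome 19, 36150922 to 36152869, minus strand) was the exception, with 2.13 and 1.83 RPKM in LY6K-AS knockdown and 0.878 and 1.07 RPKM in LNA control. For COX7A1 the log2 change was 0.59 ± 0.12, limma adjusted p = 0.110. These levels came from 56 and 57 reads in the knockdown libraries and 30 and 33 reads in the controls. The muscle isoform stayed far under COX7A2, which had 32.2 and 43.5 RPKM in LY6K-AS knockdown and 52.02 and 52.3 RPKM in LNA control. COX4I1, the core-binding subunit through which ATP inhibits the enzyme, had 52.98 and 25.9 RPKM in LY6K-AS knockdown and 57.2 and 51.8 RPKM in LNA control, so that 1 knockdown library lay within the range of the controls and the other far below it. COX8A, the most abundant subunit here, had 312 and 309 RPKM in LY6K-AS knockdown and 312 and 307 RPKM in LNA control. COX6B1 had 262 and 302 RPKM in LY6K-AS knockdown and 289 and 287 RPKM in LNA control, and the groups overlapped in both genes.

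**Figure D3:**
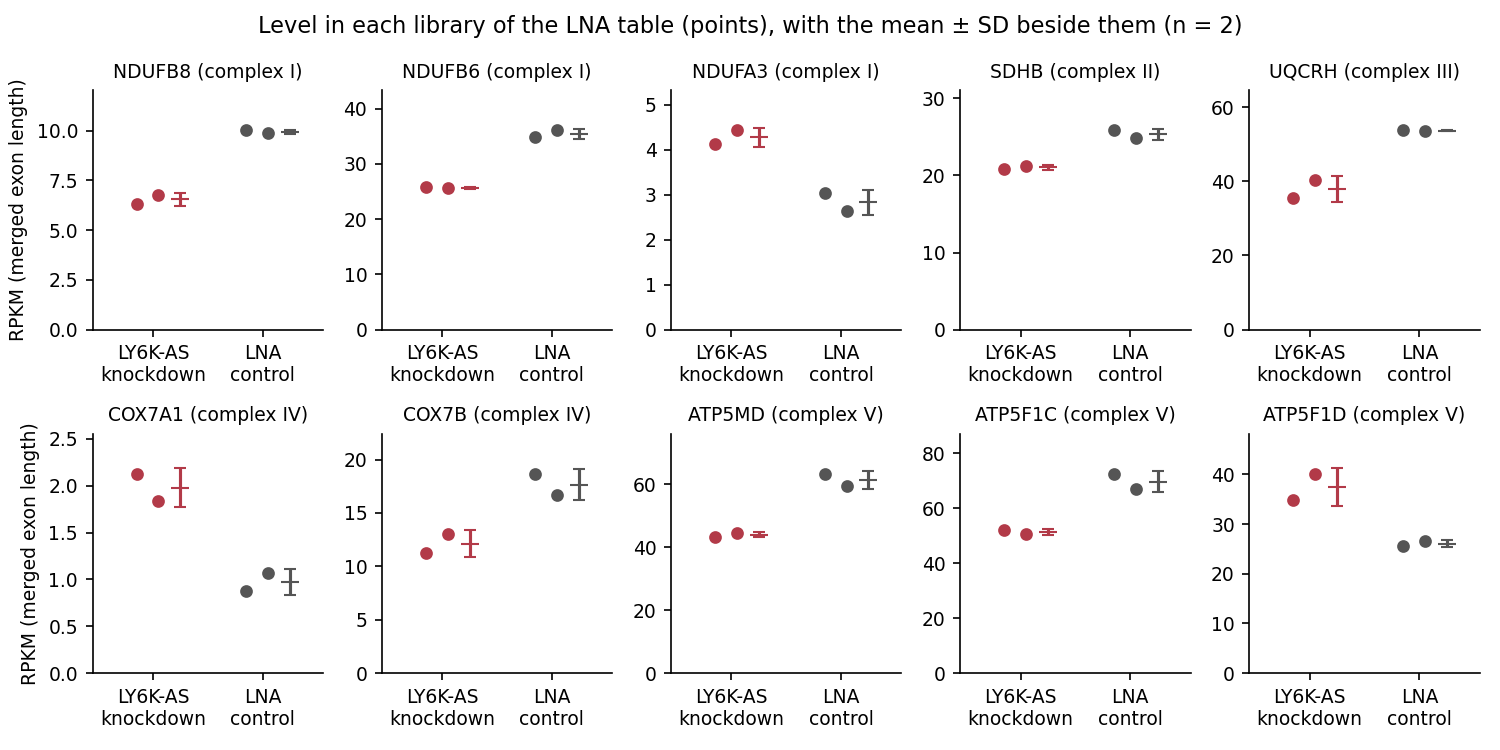
RPKM of 10 members in each library of the LNA table, LY6K-AS knockdown left and LNA control right, with the mean and SD of the 2 libraries beside the points. In each panel the groups do not overlap; NDUFA3, COX7A1 and ATP5F1D are higher in LY6K-AS knockdown and the other 7 lower.

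In complex V 16 of the 19 genes tested were measured lower. ATP5MD, a small membrane subunit of the synthase dimer (ENSG00000173915.12, chromosome 10, 103389041 to 103396492, minus strand), had 43.4 and 44.6 RPKM in LY6K-AS knockdown and 63.4 and 59.4 RPKM in LNA control. For ATP5MD the log2 change was -0.47 ± 0.09, limma adjusted p = 0.105. Its length, too, could not be checked. ATP5F1C, the gamma subunit of the rotating central stalk (ENSG00000165629.19, chromosome 10, 7788129 to 7807815, plus strand), had 52.1 and 50.5 RPKM in LY6K-AS knockdown and 72.5 and 66.9 RPKM in LNA control. For ATP5F1C the log2 change was -0.43 ± 0.09, limma adjusted p = 0.111. ATP5PF, coupling factor 6 of the peripheral stalk, had 20.6 and 21.1 RPKM in LY6K-AS knockdown and 26.7 and 27.2 RPKM in LNA control. For ATP5PF the log2 change was -0.35 ± 0.08, limma adjusted p = 0.119. Of its exon length 23.1% is shared with other genes. By part, the 4 peripheral stalk genes were all lower with a median of -0.34, the 5 membrane accessory genes all lower with a median of -0.33, and the 5 genes of the head and central stalk split into 4 lower and 1 higher. Of the 3 c ring genes 2 were lower and 1, ATP5MC2, higher by 0.01, with medians of -0.24 in LY6K-AS knockdown 1 and 0.06 in LY6K-AS knockdown 2. The higher gene of the central stalk was ATP5F1D, the delta subunit of the central stalk (ENSG00000099624.7, chromosome 19, 1241746 to 1244826, plus strand), with 34.8 and 40.1 RPKM in LY6K-AS knockdown and 25.6 and 26.6 RPKM in LNA control. For ATP5F1D the log2 change was 0.50 ± 0.11, limma adjusted p = 0.113. The delta and gamma subunits sit in the same stalk, and their genes were measured on opposite sides of the control. Their GC contents are 63.9% (ATP5F1D) and 43.6% (ATP5F1C). With other processing settings the change of ATP5F1D ran from 0.16 to 0.52 and that of ATP5F1C from -0.45 to -0.32. ATP5F1B had 327 and 343 RPKM in LY6K-AS knockdown and 399 and 376 RPKM in LNA control. ATP5IF1, which blocks the reverse reaction, had 20.7 and 24.1 RPKM in LY6K-AS knockdown and 21.98 and 21.7 RPKM in LNA control. The groups overlapped for ATP5IF1 and not for ATP5F1B.

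The change after LY6K-AS knockdown moved with base composition. The GC content of a gene is that of its longest transcript. Across the 81 members tested, Spearman's rho between the log2 change and GC content was 0.51. Knockdown libraries 1 and 2 taken alone gave 0.39 and 0.52. Across all 14662 genes rho was 0.53, from the same 4 libraries. The 27 members of lowest GC content (35.04 to 44.1%) had a median of -0.32 and 26 of them were lower, the middle 27 a median of -0.19 with 22 lower, and the 27 of highest GC content (51.4 to 64.97%) a median of -0.03 with 16 lower. All genes in the same ranges of GC content had medians of -0.16, -0.05 and 0.17, so that in each range the members' median was the lower one. COX7A1, ATP5F1D and NDUFA3, the 3 higher members at an unadjusted p under 0.05, have GC contents of 61.0, 63.9 and 56.4%. With the GC trend over all genes removed, the median of all members was again -0.18. At an unadjusted p under 0.05 in limma 23 members were then lower (28.4%, against 10.7% of all genes) and 1 higher (1.23%, against 9.32% of all genes). The medians of complexes I to V were -0.17, -0.11, -0.13, -0.19 and -0.20.

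**Figure D4:**
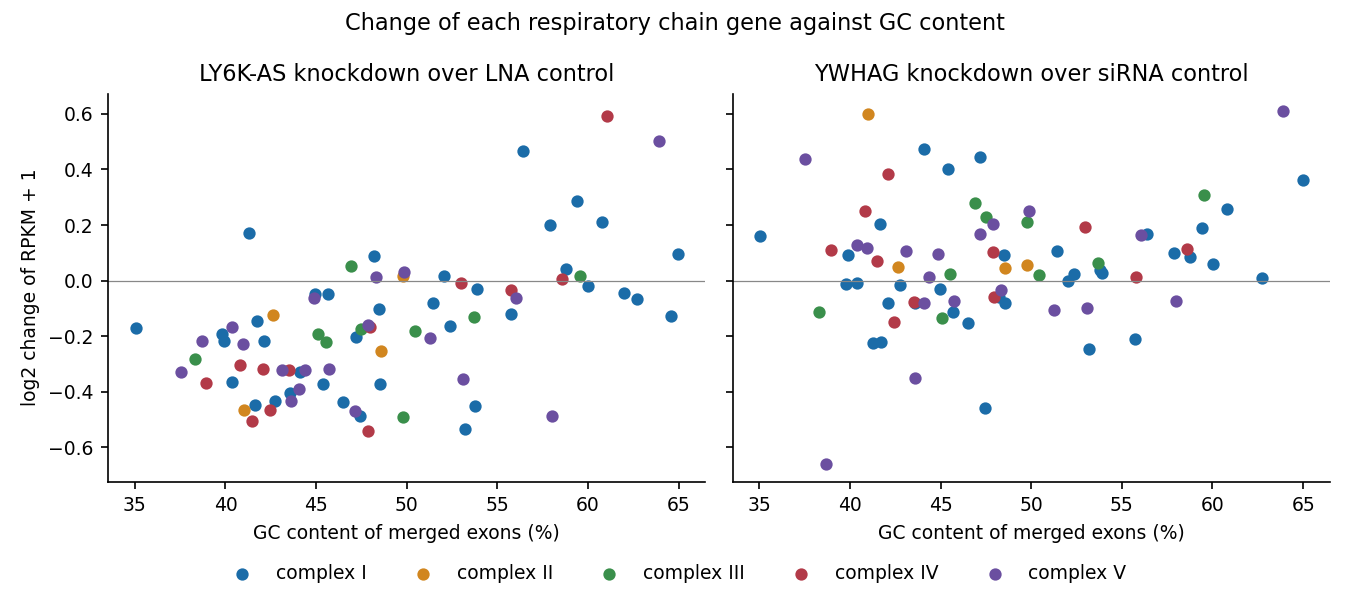
Log2 change of RPKM + 1 against the GC content of each gene's longest transcript (%), which the axis labels as merged exons. Each member tested is 1 point, coloured by complex, for LY6K-AS knockdown over LNA control (left) and YWHAG knockdown over siRNA control (right). On the left, low-GC members lie lower (rho 0.51, n = 81); on the right rho is 0.13 (n = 78).

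After YWHAG knockdown somewhat more members were measured higher than lower, with small changes and none past the test. Of 78 members tested 49 were higher and 29 lower, with a median log2 change of 0.05, against -0.05 over all 13903 genes. At an adjusted p under 0.05 limma called 0 members and 0% of all genes, and the smallest adjusted p of a member was 0.256. At an unadjusted p under 0.05 in limma 5 members were higher, where 7.51% of all genes were, and 0 were lower, where 8.9% of all genes were. The 5 higher members are 6.41% of those tested, under the share of all genes. Both knockdown libraries lay above both controls for 21 members (20.4% of all genes) and below both for 7 (30.8% of all genes). The medians of complexes I to V were 0.02, 0.05, 0.06, 0.10 and 0.10, but those of complex I and complex V changed sign with single libraries. Complex I was below 0 without siRNA control 2 or without YWHAG knockdown 2 (-0.014), and complex V without siRNA control 3 (-0.0092). The cytosolic ribosomal protein genes, by comparison, had a median of 0.30 with 76 of 83 higher, and the mitochondrial ribosomal protein genes -0.01.

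In complex I, NDUFB3, a membrane arm subunit (ENSG00000119013.8, chromosome 2, 201071433 to 201085750, plus strand), had 46.8 and 41.1 RPKM in YWHAG knockdown and 30.3 and 32.4 RPKM in siRNA control, without overlap. For NDUFB3 the log2 change was 0.47 ± 0.14 (SE; limma, unadjusted p = 0.0192, adjusted p = 0.256). NDUFC1 (ENSG00000109390.11, chromosome 4, 139266880 to 139302551, minus strand) had 13.4 and 14.4 RPKM in YWHAG knockdown and 8.83 and 11.1 RPKM in siRNA control. For NDUFC1 the log2 change was 0.45 ± 0.16, limma adjusted p = 0.289. NDUFB3 shares 19.8% and NDUFC1 18.5% of its exon length with a neighbouring gene. NDUFB7 had 59.1 and 59.7 RPKM in YWHAG knockdown and 38.7 and 54.8 RPKM in siRNA control, the controls lying further from each other than control 3 lay from the knockdown libraries. NDUFS3, a core subunit, had 17.9 and 18.6 RPKM in YWHAG knockdown and 22.3 and 20.3 RPKM in siRNA control, both knockdown libraries lying below both controls. For NDUFS3 the log2 change was -0.21 ± 0.13, limma adjusted p = 0.468. NDUFS7 had 0.930 and 0.736 RPKM in YWHAG knockdown and 0.466 and 0.601 RPKM in siRNA control.

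In complex II, SDHD stood out with 25.7 and 21.1 RPKM in YWHAG knockdown and 12.7 and 17.7 RPKM in siRNA control. For SDHD the log2 change was 0.60 ± 0.21, limma adjusted p = 0.277. The other subunits had log2 changes of 0.06 ± 0.12 (SDHA), 0.05 ± 0.13 (SDHB) and 0.05 ± 0.13 (SDHC). The signs of SDHB and SDHC turned when single libraries were left out. In complex III no member had an unadjusted p under 0.05 in limma. UQCRC1 had 42.9 and 37.3 RPKM in YWHAG knockdown and 31.1 and 33.2 RPKM in siRNA control. For UQCRC1 the log2 change was 0.31 ± 0.14, limma adjusted p = 0.350. UQCR10 had 53.7 and 59.3 RPKM in YWHAG knockdown and 44.5 and 51.6 RPKM in siRNA control. UQCRHL had 2.75 and 3.88 RPKM in YWHAG knockdown and 2.38 and 2.66 RPKM in siRNA control, and the groups overlapped in none of these. Complex IV was similar. COX6C, a small subunit, had 24.5 and 27.8 RPKM in YWHAG knockdown and 18.3 and 21.4 RPKM in siRNA control. For COX6C the log2 change was 0.38 ± 0.15, limma adjusted p = 0.307. COX6A1 had 46.3 and 45.3 RPKM in YWHAG knockdown and 38.1 and 38.6 RPKM in siRNA control. For COX6A1 the log2 change was 0.25 ± 0.12, limma adjusted p = 0.379. Neither overlapped its controls. COX5B had 59.9 and 55.6 RPKM in YWHAG knockdown and 43.9 and 57.7 RPKM in siRNA control. COX7A2 had 48.1 and 65.7 RPKM in YWHAG knockdown and 63.6 and 61.4 RPKM in siRNA control. The groups overlapped in both genes, and the sign of COX7A2 rested on YWHAG knockdown 1. COX4I1 had 52.7 and 49.04 RPKM in YWHAG knockdown and 45.2 and 49.4 RPKM in siRNA control.

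In complex V, ATP5F1D was higher again, with 17.97 and 18.8 RPKM in YWHAG knockdown and 9.80 and 13.9 RPKM in siRNA control. For ATP5F1D the log2 change was 0.61 ± 0.19, limma adjusted p = 0.269. ATP5MG, the g subunit of the membrane part (ENSG00000167283.7, chromosome 11, 118401154 to 118431496, plus strand), had 20.6 and 24.9 RPKM in YWHAG knockdown and 16.7 and 16.3 RPKM in siRNA control. For ATP5MG the log2 change was 0.44 ± 0.15, limma adjusted p = 0.275. ATP5IF1 had 14.2 and 15.3 RPKM in YWHAG knockdown and 12.2 and 12.3 RPKM in siRNA control. For ATP5IF1 the log2 change was 0.25 ± 0.13, limma adjusted p = 0.388. ATP5F1E, the epsilon subunit of the central stalk, had the largest log2 change of any member tested, -0.66 ± 0.32 (SE; limma, unadjusted p = 0.0944, adjusted p = 0.374). Its levels were 14.2 and 28.04 RPKM in YWHAG knockdown and 32.3 and 32.2 RPKM in siRNA control. It therefore rests on YWHAG knockdown 1, without which the change was -0.19, and 23.2% of its exon length lies in TUBB1.

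**Figure D5:**
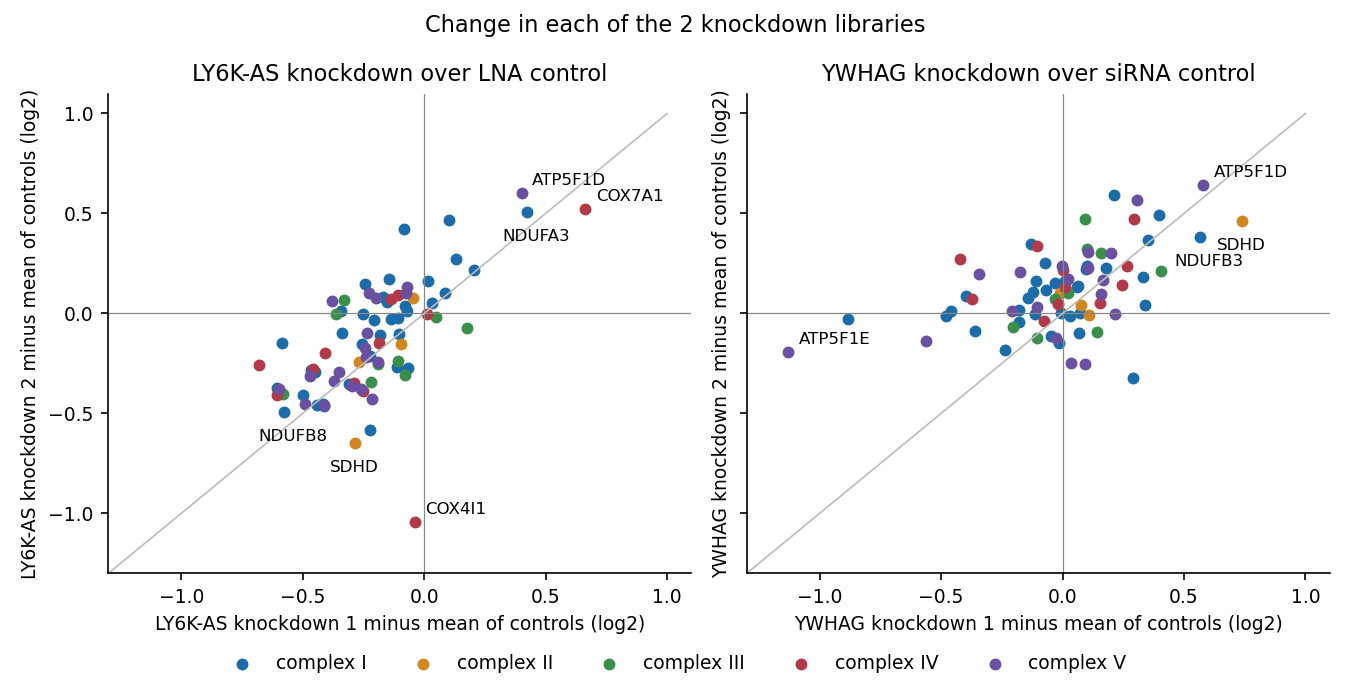
Log2 change of each member in knockdown library 1 (horizontal axis) and knockdown library 2 (vertical axis), each minus the mean of the 2 controls, for LY6K-AS knockdown (left) and YWHAG knockdown (right), coloured by complex; the grey diagonal marks equal changes. COX4I1 on the left (-0.04 and -1.04) and ATP5F1E on the right (-1.13 and -0.19) were far from control in 1 library only.

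The difference between the effects was tested in a fit of all 8 libraries, as the change after LY6K-AS knockdown minus the change after YWHAG knockdown. For 67 of the 78 members in both tables the effect of LY6K-AS knockdown was the lower one, with a median difference of -0.23, against 0.04 over all 12861 genes. At an adjusted p under 0.05 limma called 0 members and 0.179% of all genes (23). At an unadjusted p under 0.05 in limma the effect was lower after LY6K-AS knockdown for 12 members, where 8.86% of all genes were, and higher for 0, where 11.5% of all genes were. The smallest p belonged to ATP5MG, whose change was -0.33 after LY6K-AS knockdown and 0.44 after YWHAG knockdown (difference -0.77 ± 0.18, SE; limma adjusted p = 0.101). NDUFB3 had changes of -0.33 and 0.47 (difference -0.80 ± 0.19; limma adjusted p = 0.102), and UQCRH of -0.49 and 0.21 (difference -0.70 ± 0.18; limma adjusted p = 0.116). For 37 members the change was below 0 after LY6K-AS knockdown and above 0 after YWHAG knockdown, for 4 the reverse, for 25 below 0 in both and for 12 above 0 in both. ATP5F1D was among the last, with changes of 0.50 and 0.61.

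Genes that serve the chain without belonging to the members were read from lists. None of their genes passed in either comparison (limma, adjusted p under 0.05). The assembly factors, which build the complexes and stay out of the finished enzymes, had medians after LY6K-AS knockdown of -0.07 for complex I (19 tested), 0.00 for complex II (4), -0.02 for complex III (6), -0.09 for complex IV (24) and -0.14 for complex V (4). At an unadjusted p under 0.05 in limma 1 factor of complex I, 3 of complex IV and 1 of complex V were lower, and 0 were higher. For complexes I and IV this is 5.26% and 12.5% of the factors tested, beside 11.7% of all genes that were lower. The complex IV list also held LRPPRC, TACO1 and SLIRP, which are not assembly factors in that sense. SLIRP, which stabilises mitochondrial messenger RNA, is 1 of the 3 lower genes of that list. It had 13.7 and 15.8 RPKM in LY6K-AS knockdown and 20.7 and 19.7 RPKM in LNA control. Among 6 electron carriers and matrix partners outside the symbols, 2 were lower at an unadjusted p under 0.05, where 11.7% of all genes were. The first was NDUFAB1, the acyl carrier protein of complex I, with 27.2 and 22.2 RPKM in LY6K-AS knockdown and 35.8 and 32.96 RPKM in LNA control. The other was CYCS, cytochrome c, with 22.3 and 18.3 RPKM in LY6K-AS knockdown and 26.5 and 25.6 RPKM in LNA control. Among 15 regulators of mitochondrial biogenesis tested, 3 were lower (20%) and 2 higher (13.3%) at an unadjusted p under 0.05, beside 11.7% and 13.6% of all genes. TFAM, which packages and transcribes mitochondrial DNA, had 10.1 and 8.22 RPKM in LY6K-AS knockdown and 13.1 and 13.0 RPKM in LNA control, and ESRRA, an orphan nuclear receptor, 29.1 and 29.8 RPKM in LY6K-AS knockdown and 21.1 and 21.5 RPKM in LNA control.

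After YWHAG knockdown the gene of this kind that stood furthest from its control was CYCS, the electron carrier between complexes III and IV and a trigger of apoptosis once released. It had 60.9 and 49.7 RPKM in YWHAG knockdown and 17.4 and 18.4 RPKM in siRNA control, a log2 change of 1.57 ± 0.15 (SE; limma adjusted p = 0.130). SCO1, a copper chaperone for complex IV, had 9.20 and 10.6 RPKM in YWHAG knockdown and 4.94 and 4.54 RPKM in siRNA control (log2 change 0.93 ± 0.14; limma adjusted p = 0.175). LYRM7, an assembly factor of complex III, had 3.74 and 4.90 RPKM in YWHAG knockdown and 2.07 and 2.28 RPKM in siRNA control, and TIMMDC1, one of complex I, 22.7 and 29.6 RPKM in YWHAG knockdown and 14.8 and 15.4 RPKM in siRNA control. TFB2M, the mitochondrial transcription factor B2, was lower, with 15.9 and 15.7 RPKM in YWHAG knockdown and 24.1 and 22.7 RPKM in siRNA control. The list medians were 0.02, -0.02, 0.09, -0.14 and 0.06 for the assembly factors of complexes I to V, 0.27 for the 6 carriers and 0.00 for the 16 regulators.

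The subunits encoded by mitochondrial DNA, partners of the members in complexes I, III, IV and V, differed between libraries more than between groups. All 13 had a mean log2 change below 0 after LY6K-AS knockdown (median -0.41), but the median was 0.07 in LY6K-AS knockdown 1 and -0.86 in LY6K-AS knockdown 2, and none had an unadjusted p under 0.05 in limma. MT-ND2 had 2362 and 1382 RPKM in LY6K-AS knockdown and 3065 and 2482 RPKM in LNA control. After YWHAG knockdown 8 were lower and 5 higher, with a median of -0.01. When RPKM was scaled to the reads outside the mitochondrially encoded genes, the median of all nuclear members was -0.20 after LY6K-AS knockdown and 0.04 after YWHAG knockdown.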

How the data were processed

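RNA of A549 cells was sequenced in 8 libraries, 4 groups of 2, and deposited as 2 tables of RPKM by the authors. Per the submitters' processing notes the tools were STAR, featureCounts, Subread and Picard and the build hg38; their versions, the settings and whether strand was used are not given in the sources used here. Whole reads were recovered from the deposited RPKM values in 86 of 90 members (within 0.05 reads of a whole number in all values above 0), which also showed that the authors divided by gene span (end minus start) in the LNA table and by merged exon length in the siRNA table. The LNA values were therefore rescaled to exon length. The lengths of NDUFB9, NDUFV1, SDHD and ATP5MD could not be checked. NDUFC2-KCTD14, COX6A2, COX7B2 and COX8C had no value above 0, so they counted among the 86 without a check. Of 66206 IDs, 57055 matched GENCODE 29, 52238 in the same version. The gene coordinates printed are those of GENCODE 29 on hg38.

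Each knockdown was compared with its own control by limma (version 3.58.1, trend, two-sided) in R 4.3.3 on log2(RPKM + 1). Genes entered if they reached 0.5 RPKM in 2 or more of a table's 4 libraries, and p-values were adjusted by Benjamini-Hochberg over all of them, with a threshold of 0.05. The difference between the effects was fitted over all 8 libraries. The fits within a table were also run on simulated reads, in which the changed genes changed by more than the members did here. The fit over all 8 libraries and voom were not simulated. The limit of 3 reads behind a 0 covers counting error only. Per comparison and complex, the members with the smallest unadjusted p were named (5 in complex I, 3 in III, 4 in IV and 4 in V), with all SDH genes, the highest and lowest members, isoform pairs, ATP5IF1, the 3 smallest p of the difference and up to 3 genes of each other list. NDUFA7, NDUFV2, COX7B2 and COX4I1 after YWHAG knockdown were added for their values. The members and lists were chosen with earlier results of these data known. Sequences and motif shares used RefSeq promoters, the first listed start of each gene.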

Additional observations from a re-analysis of the deposited data

Results flagged for a closer look

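The medians of the respiratory chain genes lay on opposite sides of the control in the 2 comparisons: in both LY6K-AS knockdown libraries they were below 0, and in both YWHAG knockdown libraries above 0. Over all members the median change after LY6K-AS knockdown minus that after YWHAG knockdown was -0.23 on the log2 scale. The same held for complex II, with a difference of -0.24, for complex III, also -0.24, for complex IV, with -0.41, and for complex V, with -0.33. The difference between these medians was not tested. Taken gene by gene over the members tested in both comparisons, the median differences of complexes II to V were -0.24, -0.23, -0.32 and -0.26. Complex IV had 12 genes tested after LY6K-AS knockdown and 11 after YWHAG knockdown. Its median was 0.0027 in YWHAG knockdown 1, and -0.19 after LY6K-AS knockdown with the GC trend removed. The 2 pairs of groups also differ in the kind of oligonucleotide (gapmer or siRNA), in dose and in the table they were normalized in, which cannot be told apart from the target.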

How the results depend on the processing

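Of the recomputed summary values, 260 stayed within the spread of the libraries or within 1.5 times the count and 88 did not, and no complex median after LY6K-AS knockdown changed sign. For a median, the spread was that of the knockdown library medians, 0.0059 in complex IV and 0.0023 in complex V after LY6K-AS knockdown. Small shifts therefore counted there, while complex I, whose libraries differed more, was not flagged. After LY6K-AS knockdown its median (-0.13) ran from -0.17 to -0.074. For LY6K-AS knockdown, the median of complex II (-0.19) was -0.21 with a pseudocount of 0.1, -0.21 scaled to reads outside mitochondrially encoded genes, -0.11 with the GC trend removed, -0.21 with limma voom on recovered reads, -0.074 on RPKM as deposited and -0.13 without members whose length could not be checked. Complex III (-0.18) was -0.13 with the GC trend removed. Complex IV (-0.31) was -0.33 with a pseudocount of 0.1, -0.32 with 0.5, -0.23 with no filter, -0.32 with RPKM of at least 1 in every library, -0.33 outside mitochondrially encoded genes, -0.32 centred on the median, -0.19 with the GC trend removed, -0.33 with voom, -0.21 as deposited, -0.32 with the spread pooled over 8 libraries, -0.30 without readthrough genes, ATP5IF1 and COX7A2L, and -0.32 without members sharing over 20% of exon length. Complex V (-0.23) was -0.28 with a pseudocount of 0.1, -0.23 with 0.5, -0.22 with no filter, -0.25 outside mitochondrially encoded genes, -0.24 centred, -0.20 with the GC trend removed, -0.30 with voom, -0.22 as deposited, -0.27 without readthrough genes, -0.22 without unchecked lengths and -0.27 without shared exons. The last 2 settings were chosen after seeing the data. For YWHAG knockdown, complex II (0.05) was 0.10 centred and 0.13 with the GC trend removed, and complex III (0.06) was 0.054 outside mitochondrially encoded genes, 0.11 centred, 0.12 with the GC trend removed and 0.14 without shared exons. Complexes I, IV and V ran from 0.0073 to 0.073, 0.071 to 0.15 and 0.047 to 0.16. With the spread pooled over 8 libraries 64 genes were called after LY6K-AS knockdown and 214 after YWHAG knockdown, members not among them, and 8 members had an unadjusted p under 0.05 after YWHAG knockdown (5 within the table). In the difference between the effects 23 genes were called, 81 with no filter, 61 with RPKM of at least 1 in every library, 5 outside mitochondrially encoded genes and 44 as deposited. The cause of these shifts was not tested.

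Leaving out each library in turn leaves 1 sample in a group, which is then assumed to vary like the other group. For LY6K-AS knockdown, calls ran from 0 to 7725 genes and 0 to 40 members, and members at an unadjusted p under 0.05 from 0 to 51. The medians ran from -0.22 to -0.15 over all members, -0.18 to -0.035 in complex I, -0.21 to -0.17 in II, -0.24 to -0.17 in III, -0.30 to -0.22 in IV and -0.31 to -0.19 in V. For YWHAG knockdown 0 genes were called each time, members at an unadjusted p under 0.05 ran from 0 to 13, and the medians from 0.017 to 0.10 over all members, -0.014 to 0.089 in complex I, 0.031 to 0.10 in II, 0.091 to 0.14 in III, 0.0027 to 0.14 in IV and -0.0092 to 0.17 in V. For the difference, calls ran from 0 to 1185 genes and 0 to 3 members, and members at an unadjusted p under 0.05 from 7 to 22. Signs turned for SDHC after LY6K-AS knockdown (0.0051 with the GC trend removed), SDHA (-0.044 to 0.079, below 0 without knockdown 2), and after YWHAG knockdown for SDHB (-0.011 to 0.10, below 0 without control 3 or knockdown 2), SDHC (-0.0094 to 0.11, below 0 without control 3 or knockdown 1) and COX7A2 (-0.37 to 0.071, above 0 without knockdown 1).

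With the replicate block for LY6K-AS knockdown, 25 members had an unadjusted p under 0.05 (30 without it), 0 genes were called and the medians were the same (-0.18 over all members). The block joined libraries by the sample numbers 1 and 2 of their descriptions. The knockdown libraries are named LNA1 and LNA3, and no label states that same-numbered libraries belong together. Libraries joined in this way hardly deviated together (Pearson's r 0.08 across all genes, which are not independent replicates). No such block was fitted for YWHAG knockdown, where the knockdown columns are numbered 1 and 2 and the control columns 2 and 3. Depth limits what is known of the members at 0, where a count of 0 allows up to 3 reads per library.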
